A study of Mus musculus with 2 samples.

Results

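Genes of the Six-family encode homeobox transcription factors, and methylation of the CpGs at 5 of them (Six2, Six3, Six4, Six5 and Six6) was compared between Dnmt1+/+ and Dnmt1-/- mouse embryonic fibroblasts (MEFs). For each gene, every measured CpG in the gene body and within 5 kb of either end was taken, with positions on mouse build mm9 (NCBIM37). This gave 828 of the 1790826 CpGs in the table. Of the 828, 602 lay outside the sequences CCGG and TCGA, and these are the CpGs described unless stated otherwise. The other 226 lay within these sequences, the cutting sites of MspI and TaqI. At the promoters, 73 of the 226 averaged 52.4% in Dnmt1+/+ and 51.2% in Dnmt1-/-. The remaining promoter CpGs averaged 4.42% and 2.36%, so the 226 were kept apart. Whether these values near the middle of the scale are methylation of the genome was not tested, and they are not read as methylation levels here.

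Methylation was measured by reduced-representation bisulfite sequencing (RRBS), in which restriction-cut DNA is treated with bisulfite, so that methylated cytosines alone keep being read as C. Each genotype had 1 library from 1 MEF culture and no replicate. The line called Dnmt1-/- carried a hypomorphic Dnmt1 allele on both chromosomes, so the label does not mean that the enzyme was wholly absent. Both lines also lacked trp53. Dnmt1 copies CpG methylation onto the new DNA strand after replication. Over all 996064 CpGs of the table outside CCGG and TCGA, methylation averaged 45.0% and 15.1%.

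Proteins of the Six-family bind DNA through a homeodomain and a neighbouring SIX-type domain, which also binds partner proteins. They act in a network with Pax transcription factors, Eya co-activators and Dach proteins that guides the formation of eye, ear, kidney and muscle, while Six3 and Six6 also act with Groucho co-repressors of the Tle group. Fibroblasts are not the cells in which Six2, Six3 or Six6 are best known. Such developmental genes often have CpG-rich promoters that stay free of methylation even where the gene is silent.

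The 5 stretches printed here, 1 per gene, were chosen among tiles with enough measured CpGs, so DNA with sparser measured CpGs could not be chosen. Each is the 200-base tile, counted from the gene start and holding at least 5 measured CpGs, with the largest difference between library means. Sequences run 5′ to 3′ on the strand of the gene, and capitals mark the CpGs whose methylation entered the mean.
Six2, chr17:86080195-86080394, minus strand: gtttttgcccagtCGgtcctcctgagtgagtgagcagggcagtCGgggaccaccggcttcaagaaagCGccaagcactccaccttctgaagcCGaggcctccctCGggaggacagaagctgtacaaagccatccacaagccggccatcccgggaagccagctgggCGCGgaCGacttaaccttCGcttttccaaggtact
Six3, chr17:86007948-86008147, plus strand: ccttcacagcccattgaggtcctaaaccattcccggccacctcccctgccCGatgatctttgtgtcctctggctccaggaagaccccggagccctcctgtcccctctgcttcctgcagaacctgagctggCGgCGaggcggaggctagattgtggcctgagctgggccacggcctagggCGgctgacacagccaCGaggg
Six4, chr12:74213602-74213801, minus strand: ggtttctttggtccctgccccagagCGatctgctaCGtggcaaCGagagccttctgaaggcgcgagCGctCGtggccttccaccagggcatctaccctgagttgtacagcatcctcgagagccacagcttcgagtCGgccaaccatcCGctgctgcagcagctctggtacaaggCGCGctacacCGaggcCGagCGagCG
Six5, chr7:19679693-19679892, plus strand: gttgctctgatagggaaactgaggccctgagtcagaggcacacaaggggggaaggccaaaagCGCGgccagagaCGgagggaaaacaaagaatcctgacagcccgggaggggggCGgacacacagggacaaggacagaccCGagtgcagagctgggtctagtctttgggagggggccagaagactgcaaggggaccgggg
Six6, chr12:74041071-74041131, plus strand: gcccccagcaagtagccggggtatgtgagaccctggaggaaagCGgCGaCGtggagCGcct
The Six2 stretch lay between genes, from 7200 to 7399 bp past the gene start, and its 9 CpGs averaged 61.6% in Dnmt1+/+ and 4.86% in Dnmt1-/-. The Six3 stretch lay at the far end of the upstream flank, in the antisense non-coding gene Six3os1, and its 5 CpGs averaged 18.6% and 2.51%. In Six4 the stretch was coding sequence of the exon near the gene start, and its 13 CpGs averaged 3.51% and 0.868%. In Six5 it was the 200 bases just before the gene start, where 5 CpGs averaged 0% and 2.26%. In Six6 it opened at the gene start, and its 10 CpGs averaged 22.0% and 7.5%. The printed Six6 sequence is the 61-base part inside the coding exon, with 4 of those 10 CpGs. Among tiles with at least 5 measured CpGs, the largest difference thus returned a strongly methylated stretch at Six2 alone. At Six4 and Six5 the most different of these tiles was close to unmethylated in both libraries. Both genes had methylated DNA with too few measured CpGs to be chosen. In Six5, 4 CpGs of the upstream flank averaged 84.8% in Dnmt1+/+ and 28.2% in Dnmt1-/-. In Six4, 2 CpGs of the gene body averaged 100% and 70.8%, and 2 of the upstream flank 95.8% and 65.4%.

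Six2, which keeps kidney progenitor cells from differentiating, was the best covered of the 5 genes. The gene lies on chromosome 17 from 86083608 to 86087594 on the minus strand, and 51.3% of the CpGs that the genome holds in its window were measured. For the other genes this share was between 23.2% and 34.5%. Across the 216 Six2 CpGs the promoter, taken as the DNA within 1 kb of the gene start, stood apart from its surroundings. Its 122 CpGs averaged 4.14% in Dnmt1+/+ and 2.93% in Dnmt1-/-. The 62 CpGs of the flank, the 5 kb on each side outside the promoter and gene, averaged 39.3% and 3.88%. The 32 CpGs in the rest of the gene averaged 31.7% and 6.02%. A low promoter inside methylated DNA was thus present in Dnmt1+/+, and in Dnmt1-/- promoter and flank were within 0.95 percentage points of each other.

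The edge of the low stretch in Six2 was sharp on the side of the gene. In Dnmt1+/+ the mean over 500-bp bins was 3.45% in the first bin after the gene start (46 CpGs), 7.60% in the next (30 CpGs) and 41.1% in the bin that followed (12 CpGs). The same 3 bins gave 2.74%, 3.64% and 8.66% in Dnmt1-/-. On the upstream side the values in Dnmt1+/+ were 2.0% and 3.26% in the first and second bin (25 and 21 CpGs) and 16.7% in the bin beyond 1 kb (9 CpGs). Farther out, 5 CpGs between 3.5 and 4 kb upstream averaged 44.4% in Dnmt1+/+ and 4.31% in Dnmt1-/-. The downstream flank was the more methylated side, with 31 CpGs at 50.2% in Dnmt1+/+ and 4.03% in Dnmt1-/-, against 28.4% and 3.74% over the 31 CpGs of the upstream flank. The profile of single CpGs shows this as a trough of Dnmt1+/+ points around the gene start, with Dnmt1-/- points near the floor on both sides of it.

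**Figure D1:**
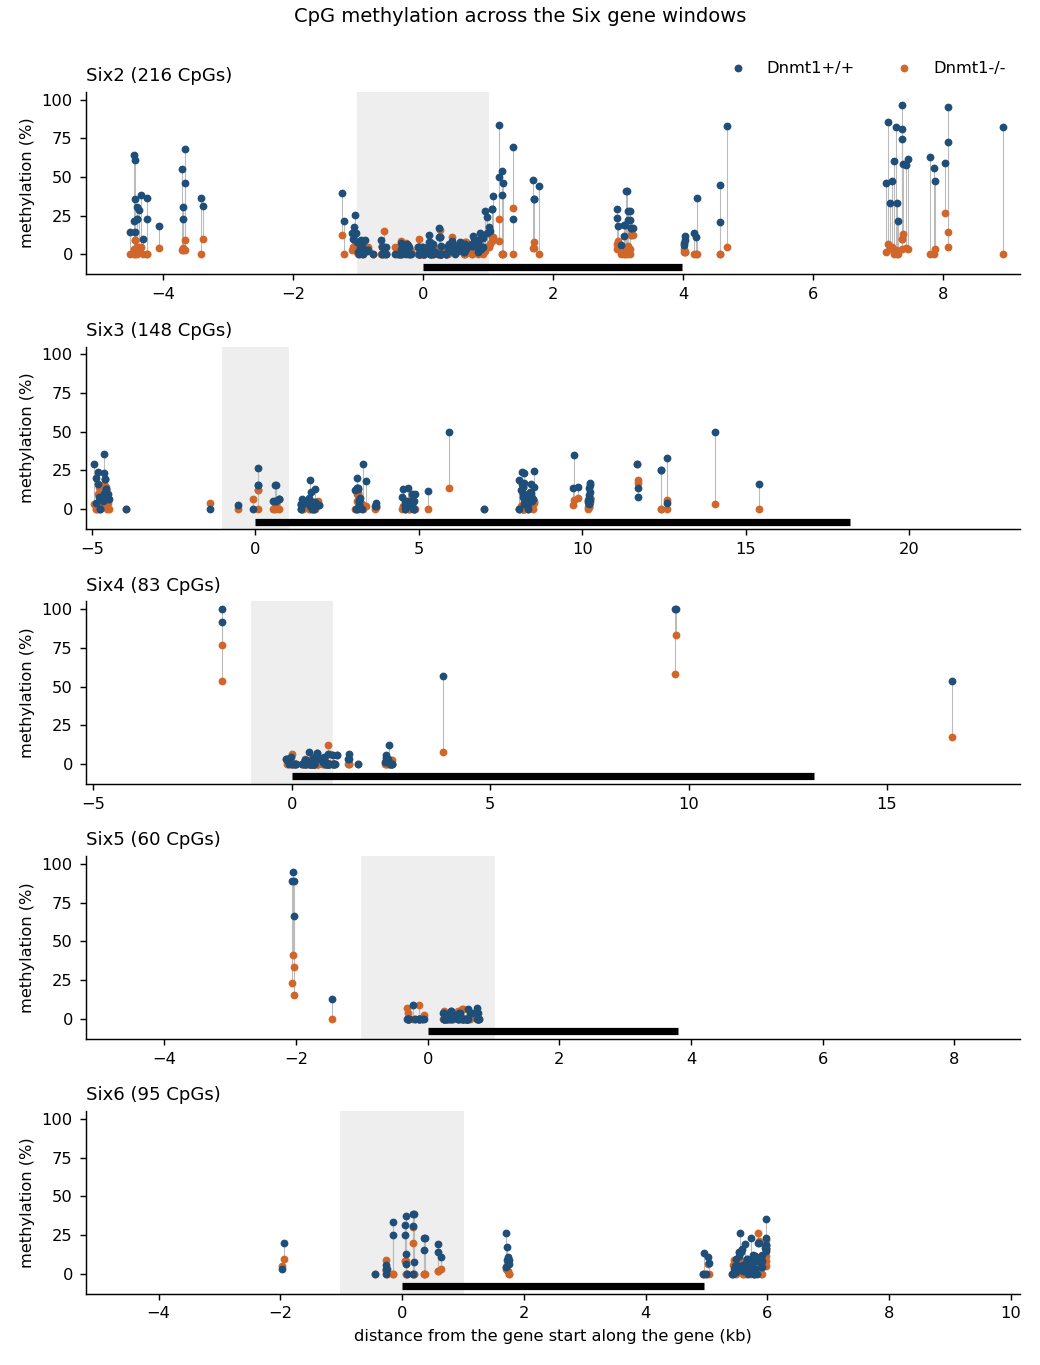
Methylation of each CpG outside CCGG and TCGA (percent, y axis) against its distance from the gene start along the gene (kb, x axis), 1 panel per gene. Blue points are the Dnmt1+/+ library and orange points the Dnmt1-/- library, grey lines join the 2 values of a CpG, the grey band marks the promoter and the black bar the gene. In Six2 the Dnmt1+/+ points reach 96.8% outside the band while none in the band is above 27.7%, and in Six5 all points in the band lie at 9.09% or lower.

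For single CpGs, the methylated and unmethylated calls of both libraries were set against each other in a two-sided Fisher's exact test. The p-values were adjusted after Benjamini and Hochberg for the 1790826 CpGs tested, and a CpG fell or rose where this was under 0.05. With 1 library each, this says whether the libraries differed, not whether the genotypes did. As PCR copies carry no molecular identifier and may stem from 1 molecule, intervals cover counting error only. The CpG of Six2 with the largest fall, at position 86080226 in the printed stretch, had 30 methylated of 31 calls in Dnmt1+/+ (96.8%, 95% Wilson interval 83.8 to 99.4%) and 3 of 30 in Dnmt1-/- (10%, 3.46 to 25.6%). Its adjusted Fisher's exact p was 1.37e-11. In all, 68 of the 216 Six2 CpGs fell and 1 rose. Of the CpGs outside CCGG and TCGA in the whole table, 44.2% fell and 0.635% rose.

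The calls in Six2 were unevenly placed. In the flank 45 of 62 CpGs fell (72.6%), in the gene body 17 of 32 (53.1%) and in the promoter 6 of 122 (4.92%). Over all protein-coding genes, the share of CpGs called lower was 36.7% in flanks, 60.5% in gene bodies and 7.1% in promoters. The 62 flank CpGs were lower in Dnmt1-/- without exception, whether or not they passed the test, while in the promoter 59 were lower and 46 higher. The 8 Six2 CpGs at 80% or more in Dnmt1+/+ averaged 86.1% there and 8.08% in Dnmt1-/-, and all 8 fell. Over the 377268 CpGs of this class in the table the means were 94.6% and 32.0%, and 88.2% fell.

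The level left in the Six2 flank was low beside other genes. The Dnmt1-/- mean there was 9.87% of the Dnmt1+/+ mean. Of 5078 protein-coding genes whose flank was at 20% or more in Dnmt1+/+, 438 (8.63%) had a share this low or lower, the median was 32.3% and the quartiles were 20.5% and 45.6%. In the Six2 gene body the share was 19.0%, and 17.7% of 10845 genes were at or under it. The genes were not matched on the level in Dnmt1+/+, which was 39.3% in the Six2 flank against a median of 59.7% over 7232 gene flanks. These ranks describe 2 libraries and carry no test.

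The 1 CpG of the 5 genes that passed the test in the upward direction also lay in the Six2 promoter, 274 bp before the gene start at position 86087868. It had 0 methylated of 104 calls in Dnmt1+/+, which allows up to 2.88% (3 calls), and 12 of 168 (7.14%, Wilson interval 4.13 to 12.1%) in Dnmt1-/-, with an adjusted Fisher's exact p of 0.0113. Even numbers of methylated calls were in excess at deep CpGs: among CpGs of the 5 windows with at least 80 calls and a partial level, 86.9% had an even number in Dnmt1+/+ (93 of 107) and 82.5% in Dnmt1-/- (104 of 126). In the table as a whole these shares were 77.1% and 78.0%. In the 5 windows they were 36.8% and 30.9% at 10 to 29 calls, and 46.6% and 39.1% at 30 to 79 calls. The tests treat every call as separate. The cause was not tested. With each call weighted by 0.5, at every depth, the adjusted Fisher's exact p of the CpG at 86087868 was 0.211, and that of the CpG at 86080226 was 4.80e-06. Under that weight 50 of the 602 CpGs fell in place of 114, and 0 rose in place of 1. The 50 comprised 36 in Six2, 9 in Six3, 4 in Six5, 1 in Six6 and 0 in Six4, and over all CpGs outside CCGG and TCGA the share that fell was 31.5%.

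Six3 and Six6 are close relatives that act in the developing forebrain, eye and pituitary. In MEFs both differed from Six2 in showing low to moderate methylation at the CpGs measured in promoter, gene and flank. Six3 spans 86012948 to 86031153 on the plus strand of chromosome 17, and its first 4789 bp overlap Six3os1. Its 12 promoter CpGs had a mean of 10.1% in Dnmt1+/+ and 3.99% in Dnmt1-/-, its 114 gene body CpGs 9.77% and 2.85%, and its 22 flank CpGs, which all lay upstream, 12.4% and 4.99%. Flank and promoter thus differed by 2.32 points in Dnmt1+/+, against 35.2 in Six2 and a median of 37.7 over 5264 protein-coding genes.

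Six3 had transcripts with 3 start positions, and the promoter above is that of the outermost. At the innermost, 7423 bp farther in, 24 CpGs averaged 10.2% in Dnmt1+/+ and 1.46% in Dnmt1-/-. Of the 24, 9 fell, where 7.1% of CpGs in promoters of all protein-coding genes did. With pooled calls the difference at the innermost start was -9.88 points (95% interval -11.6 to -8.29). Around the outermost start 0 of 12 CpGs passed the test, at an unadjusted p under 0.05 also 0 were lower, with median depths of 19 and 23 calls. Over the whole Six3 window 27 of 148 CpGs fell (18.2%) and 0 rose, against 44.2% and 0.635% in the table. Whether or not they passed the test, 119 Six3 CpGs were lower in Dnmt1-/- and 20 higher. The largest fall was at position 86027011, in a coding exon, with 9 methylated of 18 calls (50%) in Dnmt1+/+ and 1 of 28 (3.57%) in Dnmt1-/- (adjusted Fisher's exact p = 0.00121). No Six3 CpG was at 80% or more in Dnmt1+/+, and 132 of 148 were at 20% or less.

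Six6 lies on chromosome 12 from 74040932 to 74045886 on the plus strand. Its promoter was the most methylated of the 5 in Dnmt1+/+ and the 1 promoter of the 5 whose mean was lower by 10 points or more in Dnmt1-/-. Such a difference was seen in 14.6% of 12676 protein-coding genes, and one of that size upward in 0.631%. The 24 promoter CpGs of Six6 had a mean of 16.8% in Dnmt1+/+ (lowest 0%, median 14.6%, highest 38.5%) and 3.92% in Dnmt1-/- (lowest 0%, median 0%, highest 30%). The calls pooled over these CpGs gave 14.2% (95% Wilson interval 11.6 to 17.4%) and 3.01% (1.93 to 4.65%). The intervals did not overlap, although the values of single CpGs did. The antisense gene 4930447C04Rik overlaps the first 889 bp of Six6, and the CpGs nearest the start also lie in its untranslated exon.

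The CpGs of the Six6 promoter were thinly covered. The median CpG there had 16 calls in Dnmt1+/+ and 12 in Dnmt1-/-. Of 24 CpGs 1 passed the test (4.17%, against 7.1% in promoters of all protein-coding genes), with 5 lower at an unadjusted p under 0.05. The 1 was a deeper CpG at position 74041517 in the coding exon, which had 14 methylated of 72 calls (19.4%) in Dnmt1+/+ and 2 of 116 (1.72%) in Dnmt1-/- (adjusted Fisher's exact p = 0.000156). Its choice was made after its values were seen. With at least 20 calls required in both libraries, the promoter difference was -5.11 points in place of -12.9. In contrast to Six2, the measured promoter CpGs of Six6 were more methylated than those of its flank in Dnmt1+/+. The 62 flank CpGs averaged 8.59% in Dnmt1+/+ and 5.54% in Dnmt1-/-. Of these, 60 lay past the gene end, 50 of them between 5500 and 5999 bp past the gene start, so most of the flank was not measured. The gene body averaged 10.6% and 1.85% over 9 CpGs. The largest fall that passed the test was at position 74046487 in the downstream flank, from 26% (13 of 50 calls) to 5.66% (3 of 53), with an adjusted Fisher's exact p of 0.0152. With each call weighted by 0.5 this adjusted Fisher's exact p was 0.131, at a depth (30 to 79 calls) where even numbers were not in excess. In all, 13 of the 95 Six6 CpGs fell (13.7%) and 0 rose, against 44.2% and 0.635% in the table.

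**Figure D2:**
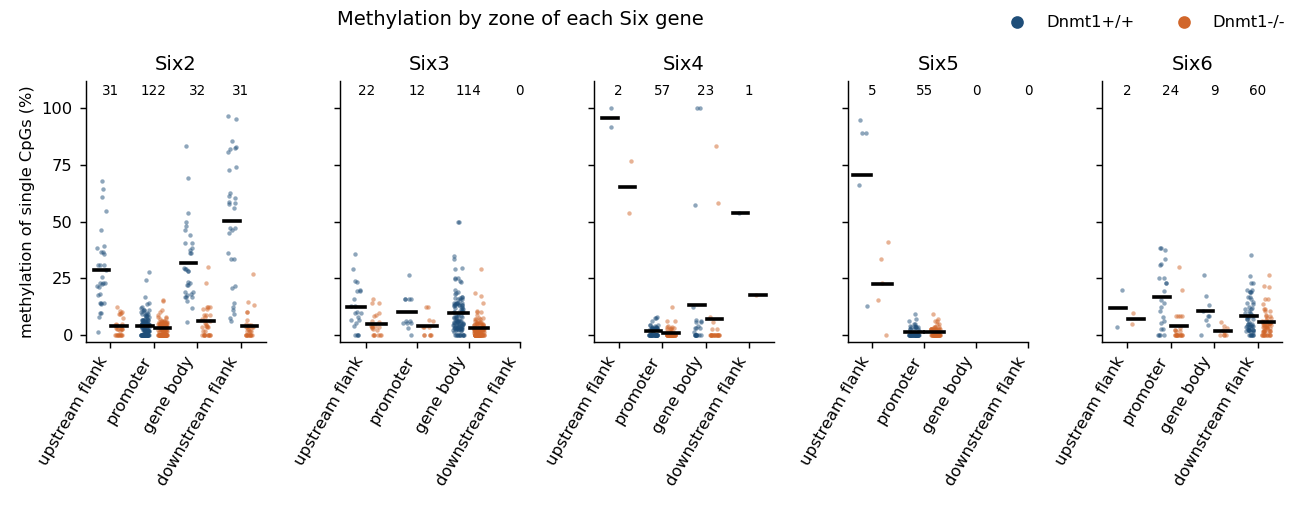
Methylation of single CpGs (percent, y axis) in the upstream flank, promoter, gene body and downstream flank (x axis) of each gene, blue for the Dnmt1+/+ library and orange for the Dnmt1-/- library. Black bars are means over CpGs and the number above each zone is its count of CpGs. In Six2 the Dnmt1+/+ means are 28.4%, 4.14%, 31.7% and 50.2% from left to right, while in Six3 they are 12.4%, 10.1% and 9.77%.

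Six4 and Six5 are related genes active in muscle. Both had promoters close to unmethylated in both libraries. Six4 lies on chromosome 12 from 74201246 to 74214401 on the minus strand, and the mean of its 57 promoter CpGs was 1.69% in Dnmt1+/+ and 0.961% in Dnmt1-/-. Of these, 31 and 42 had 0 methylated calls. Six5 lies on chromosome 7 from 19679893 to 19683694 on the plus strand, and its 55 promoter CpGs averaged 1.27% and 1.48%, with 38 and 33 CpGs at 0. The difference from pooled calls at Six5 had a 95% interval of -0.363 to 1.02 points, which includes 0. At both promoters 0 CpGs passed Fisher's exact test with adjustment, and at an unadjusted p under 0.05 also 0 were lower. The control gene Actb, an active housekeeping gene, averaged 2.01% and 0.970% over 51 promoter CpGs. Over the 12676 protein-coding genes the median promoter was at 2.66% and 1.21%.

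At Six5 the measured CpGs outside the promoter were 5 CpGs between 1 and 2.5 kb upstream, all in coding exons of Dmpk, the gene altered in myotonic dystrophy. They averaged 70.4% in Dnmt1+/+ and 22.6% in Dnmt1-/-. The largest fall was at position 19677831, with 33 methylated of 37 calls (89.2%) against 9 of 39 (23.1%), and an adjusted Fisher's exact p of 3.57e-08. The neighbours at 19677843, 19677861 and 19677865 had 94.6%, 89.2% and 66.2% in Dnmt1+/+ and 41.0%, 33.3% and 15.4% in Dnmt1-/-, and all fell. The fifth, nearest the gene, had 12.9% and 0% and did not pass the test. The Dnmt1-/- mean of this flank was 32.0% of the Dnmt1+/+ mean, close to the median of 32.3% over genes. CpGs this close together share reads and are not independent of each other.

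In Six4 low methylation reached past the promoter. Of its 23 gene body CpGs, which averaged 13.4% in Dnmt1+/+ and 6.98% in Dnmt1-/-, the 20 within 3 kb of the gene start averaged 2.56% and 0.556%, with none above 12.5% in Dnmt1+/+. The 3 farther in averaged 85.7% and 49.8%. In Six4 the 4 CpGs at 80% or more in Dnmt1+/+ were also the only 4 of the 602 CpGs that were at 50% or more in Dnmt1-/-. A pair in a coding exon, at 74204710 and 74204738, was at 100% in Dnmt1+/+ (16 of 16 calls each) and at 83.3% and 58.3% in Dnmt1-/- (10 and 7 of 12 calls). A pair upstream of the gene, at 74216152 and 74216161, was at 100% and 91.7% in Dnmt1+/+ (12 and 11 of 12 calls) and at 76.9% and 53.8% in Dnmt1-/- (10 and 7 of 13 calls). Of the 4, the CpG at 74204738 fell. These CpGs had 12 to 16 calls, too few to set the retained level closely. Over the window 2 of 83 Six4 CpGs fell (2.41%) and 0 rose, against 44.2% and 0.635% in the table. The second was an intronic CpG at position 74210588, with 8 methylated of 14 calls (57.1%) and 1 of 13 (7.69%, adjusted Fisher's exact p = 0.0307). With each call weighted by 0.5 neither passed, though even numbers were not in excess at 10 to 29 calls and the weighting shrinks such small counts.

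Set side by side, Six2 and Six5 had low promoters and methylated flank CpGs. Six4 was low through its promoter and the nearby gene body, with a few methylated CpGs farther out. Six3 and Six6 were low to moderate at the CpGs measured, and most of their flank CpGs lay in a single 500-bp bin of each gene. Flank minus promoter in Dnmt1+/+ was 35.2 points in Six2, 69.1 in Six5 (on 5 flank CpGs), 2.32 in Six3 and -8.18 in Six6. In Dnmt1-/- the same differences were 0.95, 21.1, 0.995 and 1.62 points, against a median of 9.81 over genes. The Six4 flank held 3 CpGs, which averaged 81.8% and 49.5%, and was not ranked with the others. The flank mean was lower by 10 points or more in 73.8% of the 7232 protein-coding genes with at least 5 flank CpGs, and in Six2 and Six5 of the 4 members with that many (Six2, Six3, Six5 and Six6). The 3 genes with low promoters also had the higher CpG content: observed over expected CpG in the promoter was 0.858 in Six2, 0.784 in Six5 and 0.672 in Six4, against 0.558 in Six3 and 0.544 in Six6.

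Over all 5 windows, 491 of 602 CpGs (81.6%) were at 20% or less in Dnmt1+/+, where 48.2% of the CpGs outside CCGG and TCGA in the table were. Only 15 were at 80% or more, 2.49% against 37.9% in the table. The 96 in between averaged 37.3% in Dnmt1+/+ and 5.34% in Dnmt1-/-, and 66 of them fell (68.8%). In the table such CpGs averaged 55.0% and 14.6%, and 67.4% of them fell, a share close to that of the 96. The 2 sets began from different levels. Together 114 of the 602 CpGs fell (18.9%), against 44.2% in the table. By zone, 7 of 270 promoter CpGs (2.59%), 45 of 178 gene body CpGs (25.3%) and 62 of 154 flank CpGs (40.3%) fell, where the shares over all protein-coding genes were 7.1%, 60.5% and 36.7%. The flank count was carried by Six2 with 45 of 62. In Six3 4 of 22 flank CpGs fell (18.2%), in Six6 9 of 62 (14.5%), in Six5 4 of 5 and in Six4 0 of 3. Of 48 tiles of 200 bases with at least 5 CpGs, 10 were lower by 10 points or more (7 in Six2, 2 in Six3 and 1 in Six6) and 0 higher. Over 59549 such tiles in the windows of all protein-coding genes, 22.0% were lower and 1.52% higher by as much, so that the share in the 5 genes was near that of genes at large.

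**Figure D3:**
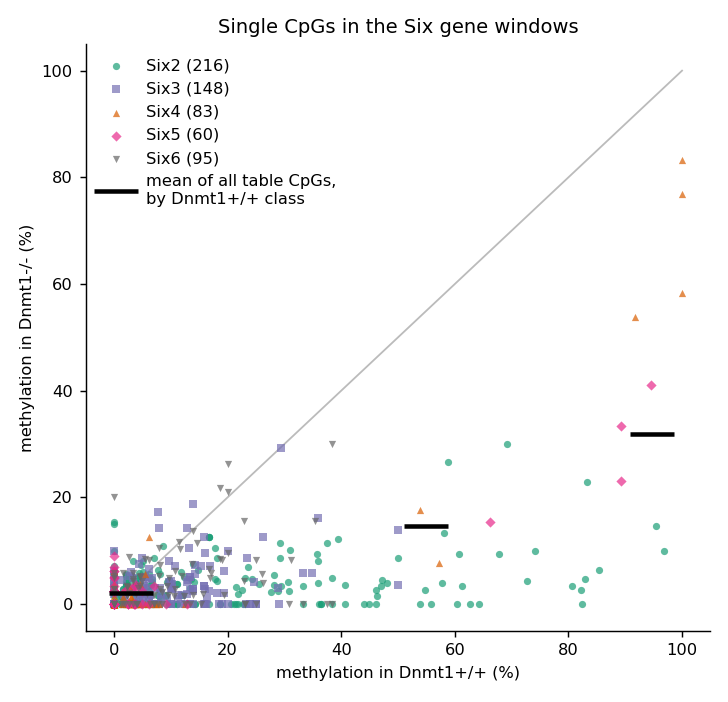
Methylation in Dnmt1-/- (percent, y axis) against Dnmt1+/+ (percent, x axis) for the 602 CpGs outside CCGG and TCGA, with a colour and marker for each gene. Black bars are means of all such CpGs in the table at 20% or less, in between, and 80% or more in Dnmt1+/+, and the grey line marks equal values. The 8 Six2 CpGs at the right average 8.08% in Dnmt1-/-, under the table's 32.0%, and the 4 Six4 CpGs above 50% average 68.1%.

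The promoters of genes that act with the Six-family were read in the same way. Of 24 such genes, 20 had at least 5 promoter CpGs, 1 was lower by 10 points or more in Dnmt1-/-, 0 were higher and 19 lay within 10 points. The median difference was -1.20 points, against -1.20 for Six2 to Six6 and -1.35 over all protein-coding genes. Among the 9 measured genes of the Pax, Eya and Dach group, Pax8, a regulator of thyroid and kidney, stood alone with a methylated promoter of 75.7% in Dnmt1+/+ and 48.3% in Dnmt1-/- (11 CpGs). Eya1, the co-activator needed for ear and kidney, was at 0.407% and 0.721%. The 4 Tle co-repressors were between 1.16% and 2.0% in Dnmt1+/+ and between 0.643% and 1.3% in Dnmt1-/-.

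Among 5 partners of Six2 in kidney progenitors, Wt1 was at 13.5% in both libraries, and Wnt4, which drives progenitors to differentiate, was at 3.23% and 1.21%. Cited1, a marker of the same progenitors, had the largest upward difference of the 20 genes, from 2.77% to 6.88%, which is under 10 points. Of its 25 promoter CpGs 0 passed the test, and the gene lies on chromosome X. Sall1 was at 4.85% and 4.24%, with 4 of 38 CpGs that fell and 2 that rose. Gdnf was at 2.06% and 1.01%, with 1 of 59 that fell. Over all protein-coding genes 7.1% of promoter CpGs fell. Of the eye and forebrain partners of Six3 and Six6, 2 were measured. Rax, which specifies the eye field, was at 14.0% and 5.93%, and Lhx2, which acts in the same tissue, at 5.44% and 1.42%. The lists are small and no test was made across them. The 4 listed genes with fewer than 5 promoter CpGs were Eya2, at 97.4% and 0% over 2 CpGs that both fell, Osr1, at 26.5% and 45.4% over 2 CpGs of which 1 rose, Dach2, at 9.20% and 2.15% over 3 CpGs that did not pass the test, and Otx2, with 0 CpGs.

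**Figure D4:**
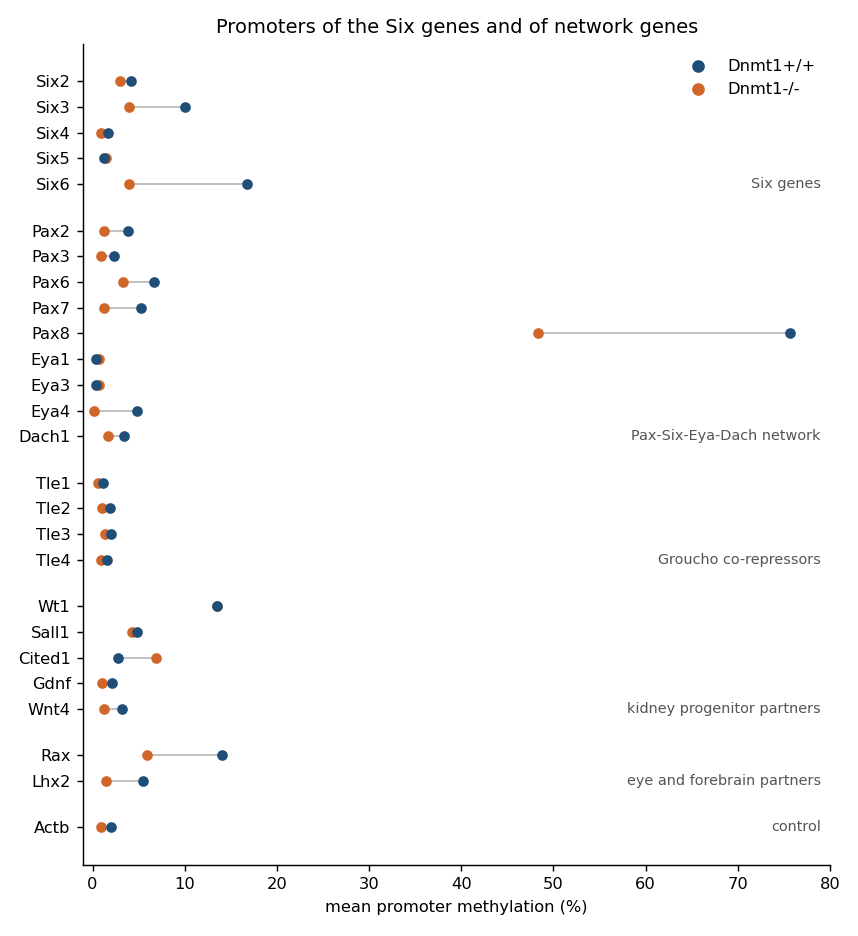
Mean promoter methylation (percent, x axis) of Six2 to Six6 and of the listed genes with at least 5 promoter CpGs (y axis), blue for the Dnmt1+/+ library and orange for the Dnmt1-/- library, with a grey line joining the 2 values. Pax8 lies far to the right at 75.7% and 48.3%, while Six6, Rax and Wt1 lie between 13.5% and 16.8% in Dnmt1+/+ and most other genes near 0.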

How the data were processed

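RRBS was carried out on DNA of 2 MEF lines, and the genotype given in the labels set the groups, Dnmt1+/+ and Dnmt1-/-, of 1 library each. Reads were handled and aligned by an outside sequencing company. The submitters' processing notes name Bismark and mm9, and versions and the conversion rate are not given in the sources used here. Per the file headers, depth is the count of calls at a CpG in the deposited table, and the authors left out CpGs with fewer than 10 calls in either library. The deposited percent values give the methylated part of those calls. Percent multiplied by depth was whole (within 0.01) at 100% of CpGs in both libraries and gave the methylated calls. All 1790826 positions fell on a CG of NCBIM37, and each CpG was listed once. Whether the calls of both strands were merged in its entry was not tested.

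Total calls were 74636195 in Dnmt1+/+ and 78401157 in Dnmt1-/-. Median depth in the 5 windows was 40 and 49 calls, so that a CpG with 0 methylated calls may still hold several percent. Genes and starts were taken from GENCODE vM1. Promoters were set within 1 kb of the gene start, and zones with fewer than 5 CpGs were described but not ranked. Zone values are means over CpGs, each counted once. Intervals are 95% Wilson intervals on pooled calls and, for differences, Newcombe intervals. CpGs of a zone share reads, so that these are too narrow, and no p was taken over zones.

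For each gene the text names the CpGs past the threshold with the largest fall and rise and the 200-base tile with the largest difference. The Six4 and Six5 CpGs given beyond these were picked out after their values were seen. The genes, partner lists and tests were chosen with earlier results of these data known. The result for 1 further partner gene is not reported here and enters no count. Alternatives used all CpGs, a depth of 20, pooled calls, a 500 bp promoter, a 2 kb flank, an adjusted p under 0.01 and a minimum difference of 25 points. Centring the promoter on the innermost start and weighting each call by 0.5 (methylated and unmethylated calls each divided by 2 and rounded down) were added after the data were seen. Tables were handled in pandas 2.3.3 under Python 3.11.15, tests and intervals used numba 0.67.0 and scipy 1.17.1, sequence was read with pysam 0.24.0 and plots drawn with matplotlib 3.10.9. The study's histone and expression measurements are not used here.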

Additional observations from a re-analysis of the deposited data

How the results depend on the processing

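No paired analysis was possible because the labels give no replicate numbers and there was 1 library per genotype. Of 66 recomputed values, 45 stayed close and 21 moved. A difference stayed close where it shifted by less than the reach of its 95% counting interval, and a count where it was within 1.5 times. By that measure the small promoter differences of Six4 (-1.36 to -0.242 points) and Six5 (0.137 to 0.459 points) stayed close, although they shifted by over 1.5 times. No difference changed sign. With all measured CpGs, which adds those of CCGG and TCGA, the values that moved were smaller differences: -28.4 points in the Six2 flank, -22.0 in the Six2 body, -5.89 in the Six3 body and -32.4 in the Six5 flank, and 3 CpGs rose. With pooled calls the Six2 flank was at -32.1 and its body at -22.6. With a promoter of 500 bp the Six2 promoter was at -0.288, its flank at -26.6, its body at -15.2 and the Six4 body at -3.05, since low CpGs pass from the promoter to the other zones. With a flank of 2 kb the Six2 flank was at -17.8 and 69 CpGs fell, as fewer CpGs were counted. At a depth of 20 the Six3 body was at -6.07, the Six4 body at -2.47 and the Six6 promoter at -5.11. A minimum difference of 25 points left 57 CpGs that fell and 0 that rose, an adjusted p under 0.01 left 0 that rose by Fisher's exact test, and weighting each call by 0.5 left 50 and 0. Fewer than 5 CpGs were left for the Six3 promoter at a depth of 20 or within 500 bp and for the Six3 and Six5 flanks of 2 kb. The Six4 flank and Six5 body had too few CpGs to be recomputed. The 1 library per genotype means that no difference here could be set against biological spread.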

Other observations

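The CpGs inside CCGG or TCGA gave values of their own, and whether these are methylation of the genome was not tested. Over the 226 in the 5 windows the mean was 59.7% in Dnmt1+/+ and 52.8% in Dnmt1-/-. In the flank of Six2 the 37 such CpGs averaged 68.4% and 51.7%, against 39.3% and 3.88% for the 62 CpGs outside these sequences. In the promoter of Six5 the 13 such CpGs averaged 52.7% and 53.9%, against 1.27% and 1.48%.

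A group of 3 CpGs in the untranslated part of a Six3 exon, between 11.5 and 12 kb past the gene start, averaged 17.0% in Dnmt1+/+ and 21.7% in Dnmt1-/-. At position 86024649 in this group 8 of 104 calls were methylated in Dnmt1+/+ (7.69%) and 28 of 163 in Dnmt1-/- (17.2%), with an adjusted Fisher's exact p of 0.0622, so that it did not pass the test. These CpGs were picked out after their values were seen.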
